A study of Rattus norvegicus with 6 samples.

Results

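The genes of voltage-gated sodium, potassium and calcium channels, with their accessory subunits and the related calcium-activated and hyperpolarization-activated channels, were followed in purified rat retinal ganglion cell (RGC) neurons on 6 Affymetrix whole-genome rat expression arrays. A list of 42 such genes was drawn up, and each was read from the probe set (a group of short probes for 1 transcript) with the highest mean over the 6 arrays among those annotated with that symbol alone. In all, 41 of the 42 had such a probe set, out of 14217 genes named on the array, and Kcnn2 was left out. Per the labels, all RGCs came from rats of postnatal day 6 and had been cultured for 12 days in medium with BDNF and CNTF, to which the methods add forskolin. The Untreated group (2 arrays) received no protein, the Gpc4 group (2 arrays) received glypican 4 protein for 12 hours, and the TSP1 group (2 arrays) received thrombospondin 1 protein for 12 hours. Per the methods, transfected HEK293 cells, a human embryonic kidney line, secreted the His-tagged Gpc4, which was collected on nickel beads, the TSP1 was a recombinant mouse protein, and each array carried RNA of 2 pooled wells. No array received a protein purified in the same way that lacks Gpc4.

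Voltage-gated channels open and close with the membrane potential, and their mix sets when a neuron fires and how its terminals release transmitter. Sodium channels carry the upstroke of the action potential, most potassium channels repolarize the membrane or hold it back from firing, and calcium channels couple depolarization to transmitter release and to signaling inside the cell. The pore subunits assemble with smaller partners that alter gating or carry the channel to the surface. In RGCs, the only neurons that send retinal signals to the brain, these channels shape the spike trains of the optic nerve. The comparison asks whether the mRNA of these genes differed after 12 hours with Gpc4, which in the study induces active synapses, or with TSP1, which induces silent ones.

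Expression was given as log2 RMA values, the deposited unit, in which a step of 1 is a doubling. The array medians lay between 5.96 and 5.99, and the 2 arrays of a group differed by a median of 0.10 to 0.11 on the log2 scale. All 10 measured RGC markers, among them Rbpms, Thy1, Pou4f1 and Slc17a6, lay above the median on every array. Of 11 astrocyte and Muller glia markers 3 did so, of 9 microglia markers 1, of 8 fibroblast markers 4, of 7 endothelial and pericyte markers 1, of 10 amacrine, bipolar and horizontal cell markers 3, of 6 photoreceptor markers none, and of 7 oligodendrocyte markers 1. On a linear scale the summed endothelial and pericyte markers were 232 to 275 in Untreated, 344 to 361 with Gpc4 and 224 to 229 with TSP1. Kdr made this gap, with means of 7.10, 7.93 and 6.80 on the log2 scale, and the median log2 fold change of the 7 markers with Gpc4 was 0.02. Those of astrocytes and Muller glia were 1460 to 2009, 1980 to 2231 and 1756 to 1948, and those of fibroblasts 1118 to 2100, 1188 to 1820 and 1334 to 2302. Under these fibroblast sums, log2 means in Untreated and with TSP1 were 6.67 and 5.18 for Dcn, 5.82 and 4.18 for Lum, 7.05 and 5.70 for Pdgfra, and 7.81 and 8.80 for Postn. None of the 8 passed in the fit without the block, and with it 1 passed for TSP1 against Untreated and 3 for Gpc4 against TSP1. The summed RGC markers stayed between 61877 and 64221 over all arrays. The part of these cells in the channel values was not tested. In bulk samples fewer cells of a type and less RNA per cell cannot be told apart.

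Of the 41 channel genes, 31 lay above the array median on all 6 arrays. Scn8a, Scn4b, Kcnb2, Kcnq3, Kcnn3, Hcn4 and Cacna1e lay below it on all 6, and Kcna4, Cacna1d and Cacna1g on some. The files hold no detection call, so none of the 41 was shown to be above background. The low values of these 10 leave this most in doubt, and near background a real change in mRNA can look smaller than it is. Probe sets bind differently, so levels of different genes were not set against each other.

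**Figure D1:**
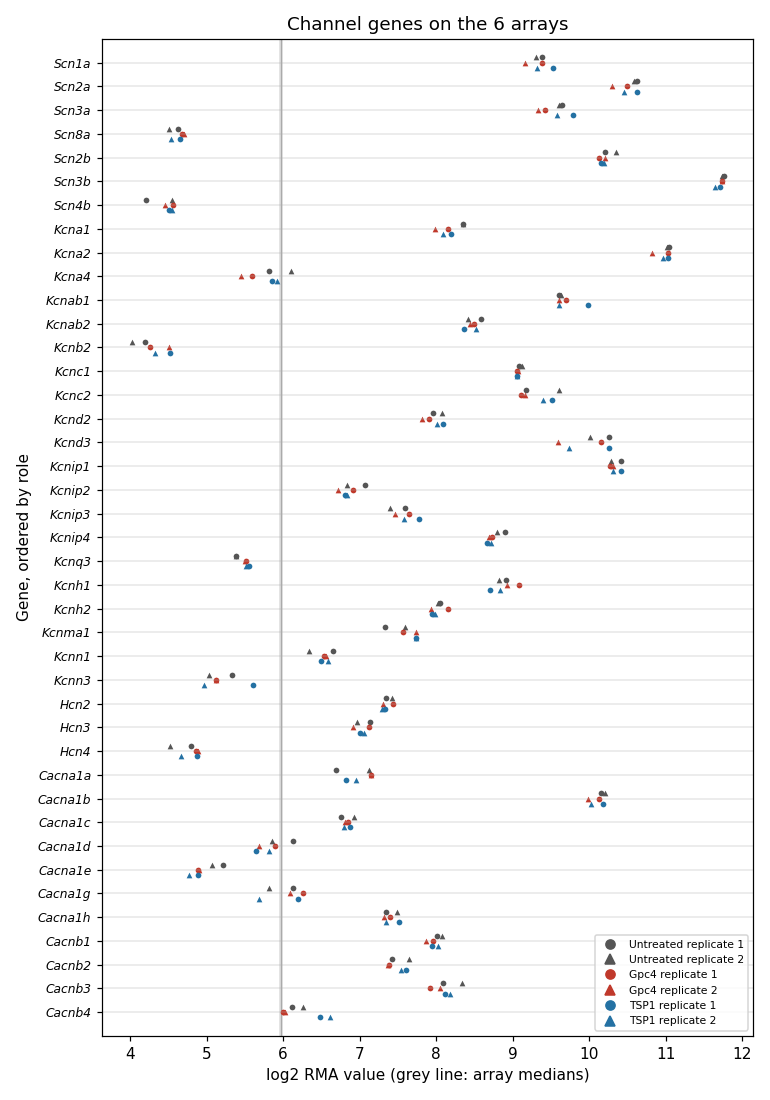
Log2 RMA value (x axis) of the 41 channel genes (y axis, ordered by role) on each array, with circles for replicate 1, triangles for replicate 2 and a grey line at the array medians of 5.96 to 5.99. Differences between groups are small beside the range of levels, and 7 genes lie left of the grey line on all 6 arrays.

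None of the 41 channel genes passed the test for a change with Gpc4 or with TSP1, which does not show that they were unchanged. The test was a two-sided one from limma, which fits each of the 31042 probe sets over the 6 arrays and steadies its variance with that of the others, with a Benjamini-Hochberg adjusted p under 0.05 taken as a change. For Gpc4 against Untreated 0 of 41 passed, where 0.0838% of all probe sets did, and 0 of 41 also when replicates were blocked (the replicate number added as a term), where 0.206% did. For TSP1 against Untreated 0 of 41 passed in both fits, where 0% and, with the block, 0.0129% of all probe sets did. For Gpc4 against TSP1 0 of 41 passed in both fits, where 0.0612% and, with the block, 0.258% did. At an unadjusted p under 0.05 by limma, 4 channel genes stood out with Gpc4 (9.76%, against 6.88% of all probe sets), 4 with TSP1 (9.76%, against 4.40%) and 4 between Gpc4 and TSP1 (9.76%, against 4.51%).

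Most intervals were narrow, but for genes near background this does not bound the change in mRNA. Such genes may include those below the array median on some or all arrays. The 95% interval of the log2 fold change lay within 1.5-fold in either direction for 37 of 41 genes with Gpc4. That was 90.2%, against 93.0% of all probe sets. It did so for 38 with TSP1 (92.7%, against 94.3%) and for 34 between Gpc4 and TSP1 (82.9%, against 94.6%). The exceptions with Gpc4 were Kcna4, Kcnc2, Kcnd3 and Cacna1g, and with TSP1 they were Kcnb2, Kcnd3 and Cacnb4. Between Gpc4 and TSP1 they were Kcna4, Kcnc2, Kcnd3, Kcnn3, Cacna1a, Cacna1g and Cacnb4. These intervals come from the fit without the replicate block. With the block the standard error with Gpc4 was 0.10 for Kcnd3 (0.22 without it) and 0.10 for Cacna1g (0.18 without it). Log2 fold changes ran from -0.44 to 0.28 with Gpc4 (median -0.06, against -0.01 for all probe sets) and from -0.32 to 0.36 with TSP1 (median -0.02, against -0.01).

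With Gpc4 more of the channel genes lay below Untreated than above it. The log2 fold change was negative for 28 of 41 (68.3%, against 50.4% of all probe sets), positive for 12 and 0 for Kcnh2. It was negative in both replicate pairs for 20 genes (48.8%, against 27.4%) and positive in both for 9 (22.0%, against 25.2%). Both Gpc4 arrays lay below both Untreated arrays for 14 genes (34.1%, against 18.9%) and above both for 6 (14.6%, against 16.0%). All 4 genes at an unadjusted p under 0.05 were on the lower side, where 3.67% of all probe sets were. The median was -0.03 in replicate pair 1 and -0.11 in pair 2, and it was -0.01 without Gpc4 replicate 2. With TSP1 the log2 fold change was negative for 23 of 41 (56.1%, against 50.6%) and positive for 18. It was negative in both replicate pairs for 11 (26.8%, against 25.4%) and positive in both for 9 (22.0%, against 23.7%), with a median of 0.02 in pair 1 and -0.05 in pair 2. Both TSP1 arrays lay below both Untreated arrays for 9 genes (22.0%, against 15.6%) and above them for 4 (9.76%, against 14.3%), and 1 of the 4 genes at an unadjusted p under 0.05 was on the lower side (2.06% of all probe sets). Both sets of values use the same 2 Untreated arrays. Of 18 genes for proteins that anchor or modify channels, 13 were negative with Gpc4 (median -0.08), as were 7 of 10 RGC markers (median -0.04). Of 7 other calcium channel subunits 5 were negative, and of 6 other sodium channel subunits 2. Of 29 other voltage-gated potassium channel subunits 12 were negative, and of 26 inward rectifier and leak subunits 10. The lean was thus also seen in the anchoring genes, RGC markers and other calcium channel subunits. It was not seen in the other sodium and potassium channel lists. Over the 86 other channel genes measured, which leave out the RGC markers, 42 were negative and 42 positive with Gpc4 (median 0.00). No test was made over any list.

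**Figure D2:**
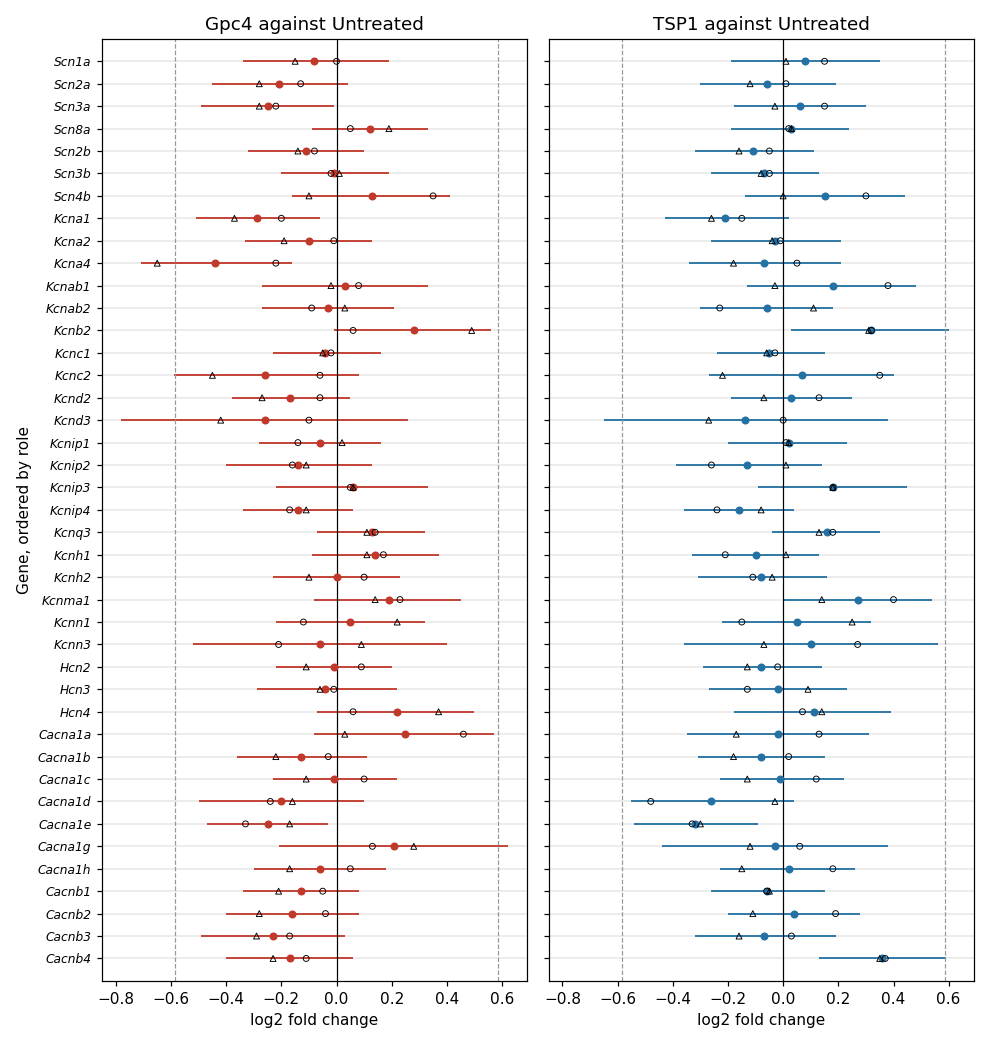
Log2 fold change (x axis) of each channel gene (y axis, ordered by role) with Gpc4 (left) and TSP1 (right) against Untreated. Filled points are estimates, lines are 95% intervals from limma, open circles and triangles are replicate pairs 1 and 2, and dashed lines mark 1.5-fold; 37 of 41 intervals lie between the dashed lines with Gpc4 and 38 with TSP1.

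Among the pore subunits of sodium channels, Scn3a, which is prominent in immature neurons, had log2 values of 9.64 and 9.61 in Untreated, 9.42 and 9.33 with Gpc4, and 9.79 and 9.58 with TSP1. Both Gpc4 arrays lay below all 4 others. The log2 fold change with Gpc4 was -0.25 (standard error 0.10, 95% interval -0.49 to -0.01, adjusted p = 0.72 from limma and 0.46 when replicates were blocked). Against TSP1 it was -0.31 (standard error 0.10, adjusted p = 0.95 from limma). Scn2a, a main sodium channel of axons early in development, read 10.62 and 10.58 in Untreated, 10.49 and 10.30 with Gpc4, and 10.63 and 10.46 with TSP1. Its Gpc4 log2 fold change was -0.21 (standard error 0.11, adjusted p = 0.76 from limma), or -0.11 without Gpc4 replicate 2, and the TSP1 arrays spanned the Untreated ones. Scn1a stood at 9.35 ± 0.05 (SD, n = 2) in Untreated, with log2 fold changes of -0.08 with Gpc4 and 0.08 with TSP1. Scn8a, which encodes a channel of the mature axon initial segment and nodes, read 4.51 to 4.70 over all 6 arrays, below the array medians.

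The beta subunits of sodium channels are single-pass membrane proteins that tune gating and bind adhesion partners. Scn3b had log2 values of 11.76 and 11.73 in Untreated, 11.74 on both Gpc4 arrays, and 11.71 and 11.65 with TSP1. Its differences of -0.01 with Gpc4 and -0.07 with TSP1 had a standard error of 0.08, and the 95% interval with Gpc4 was -0.20 to 0.19. Scn2b read 10.21 and 10.35 in Untreated, 10.13 and 10.21 with Gpc4, and 10.16 and 10.19 with TSP1. Its log2 fold change was -0.11 with each protein (standard error 0.09 for each), and both TSP1 arrays lay below Untreated, while its further probe set gave 0.04 and 0.21. Scn4b, whose product can open-block sodium channels and so support resurgent current, lay below the array medians (4.21 to 4.56), with 0.13 and 0.15.

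The Shaker-type potassium channel genes Kcna1, Kcna2 and Kcna4 had negative log2 fold changes with Gpc4, and none passed. Their channels give low-threshold currents along axons that limit repetitive firing, and the Kcna4 channel inactivates fast. Kcna4 read 5.81 and 6.10 in Untreated, 5.59 and 5.45 with Gpc4, and 5.86 and 5.92 with TSP1. Both Gpc4 arrays were below the 4 others, while the TSP1 arrays fell between the Untreated ones. Its log2 fold change with Gpc4, -0.44 (standard error 0.12, 95% interval -0.71 to -0.16), was the largest in size among the 41 genes for this comparison, with an adjusted p = 0.53 from limma, or 0.34 when replicates were blocked. Replicate pair 1 gave -0.22 and pair 2 gave -0.65, and it was -0.29 without Untreated replicate 2. These values straddle the array medians. Kcna1 read 8.35 on both Untreated arrays, 8.15 and 7.98 with Gpc4, and 8.20 and 8.09 with TSP1, so that both treated groups lay below Untreated. The log2 fold change was -0.29 with Gpc4 (standard error 0.10, adjusted p = 0.67 from limma) and -0.21 with TSP1 (standard error 0.10, adjusted p = 0.98 from limma). Kcna2 stood at 11.03 ± 0.02 (SD, n = 2) in Untreated, with -0.10 and -0.03, while its further probe set gave 0.14 and 0.27.

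Of the 4 channel genes with an unadjusted p under 0.05 with Gpc4, the RefSeq promoter table (build GRCr8) held Kcna4, Cacna1e and Scn3a. The 250 bases before their annotated starts are printed for that reason, so the choice rests on their differences in these data. Both strands were searched for GTCTAGAC (a palindromic SMAD-binding element) and TGACGTCA (a cyclic AMP response element). The hexamer searched for promoters of the housekeeping kind, bound by Sp1, was GGGCGG. The core promoter element near the start of many regulated genes was searched as TATAAA. The motifs were chosen with the values and sequences in view. Capitals mark a match.
Kcna4 (chr3:114215086-114215335, plus strand): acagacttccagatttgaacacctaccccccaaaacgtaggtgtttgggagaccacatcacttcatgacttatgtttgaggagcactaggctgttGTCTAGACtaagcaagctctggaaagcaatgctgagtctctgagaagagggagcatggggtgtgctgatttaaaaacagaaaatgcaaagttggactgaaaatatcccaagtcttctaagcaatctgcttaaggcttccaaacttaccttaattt
Cacna1e (chr13:69444811-69445060, minus strand): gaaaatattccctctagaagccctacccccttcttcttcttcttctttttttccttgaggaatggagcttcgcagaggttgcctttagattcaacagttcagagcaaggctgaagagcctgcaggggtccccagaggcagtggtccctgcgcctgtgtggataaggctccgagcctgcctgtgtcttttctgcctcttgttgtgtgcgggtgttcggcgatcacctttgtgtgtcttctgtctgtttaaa
Scn3a (chr3:70666199-70666448, minus strand): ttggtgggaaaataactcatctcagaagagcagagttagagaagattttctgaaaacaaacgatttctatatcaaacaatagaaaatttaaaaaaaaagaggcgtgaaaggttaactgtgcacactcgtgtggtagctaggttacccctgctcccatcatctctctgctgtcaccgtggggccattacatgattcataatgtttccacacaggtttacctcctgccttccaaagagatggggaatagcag
Kcna4 held GTCTAGAC, starting 155 bases before its start, and these windows of the other 2 held none of the 4 motifs. Of the 27 channel genes with an entry in the table, Kcna4 alone held GTCTAGAC (3.7%, against 0.173% of 33469 promoters). The Sp1 hexamer was held by 14 (51.9%, against 30.5%), and none held the core promoter element (12.9% of all) or TGACGTCA (1.59%). Each channel gene was searched at its first entry, whereas the shares over all promoters count every entry searched. As the motifs were also chosen with the sequences in view, these shares cannot show that a motif is more frequent in channel genes. A match is a run of letters and was not tested as a binding site. G+C content was 42.8% for Kcna4, 51.2% for Cacna1e and 41.6% for Scn3a.

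Kcnab1 and Kcnab2 encode cytoplasmic beta subunits of the Shaker-type channels. Kcnab1 read 9.61 and 9.63 in Untreated, 9.69 and 9.61 with Gpc4, and 9.99 and 9.60 with TSP1. The TSP1 difference of 0.18 (standard error 0.13) rested on replicate 1, and without that array it was -0.02. Kcnab2 had -0.03 with Gpc4 and -0.06 with TSP1. Its further probe sets, below the array medians, gave -0.28, -0.26 and 0.12 with Gpc4, and -0.18, -0.14 and -0.13 with TSP1.

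The Kv2 and Kv3 subunit genes gave small values in both directions. Kcnb2, a delayed rectifier, read 4.20 and 4.02 in Untreated, 4.26 and 4.51 with Gpc4, and 4.52 and 4.33 with TSP1. Both treated groups lay above Untreated, with log2 fold changes of 0.28 (standard error 0.12, adjusted p = 0.74 from limma) and 0.32 (standard error 0.12, adjusted p = 0.98 from limma), all below the array medians. Kcnc1, whose channel permits fast spiking, was among the steadiest, at 9.08 and 9.12 in Untreated, 9.06 and 9.07 with Gpc4, and 9.05 and 9.06 with TSP1. Its 95% interval was -0.23 to 0.16 with Gpc4 and -0.24 to 0.15 with TSP1. Kcnc2 read 9.17 and 9.61 in Untreated, 9.11 and 9.16 with Gpc4, and 9.52 and 9.39 with TSP1. The spread of its Untreated arrays exceeded the Gpc4 difference of -0.26 (standard error 0.14, adjusted p = 0.78 from limma).

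Kv4 channels carry the A-type current of dendrites and are bound by the calcium-sensing KChIP proteins. On the probe set used, Kcnd3 separated replicates more than treatments. The replicate 1 arrays of Untreated, Gpc4 and TSP1 read 10.26, 10.16 and 10.26, and the replicate 2 arrays 10.01, 9.59 and 9.74. Replicate 2 was lower by 0.25, 0.57 and 0.52 on the log2 scale. In the fit without the block its fold change therefore had the widest interval of the list, -0.78 to 0.26 with Gpc4. The log2 fold change was -0.26 (standard error 0.22, adjusted p = 0.86 from limma). When replicates were blocked the standard error was 0.10 and the adjusted p = 0.51 from limma. A further probe set of Kcnd3, at 9.79 in Untreated, gave 0.06 with Gpc4 and 0.09 with TSP1 (standard error 0.10 for each). Another, at 4.66 in Untreated, gave -0.21 and -0.15. Kcnd2 stood at 8.02 ± 0.08 (SD, n = 2) in Untreated, with -0.17 and 0.03. Of the KChIP genes, Kcnip4 read 8.90 and 8.80 in Untreated, 8.73 and 8.69 with Gpc4, and 8.66 and 8.72 with TSP1, and both treated groups lay below Untreated by 0.14 and 0.16 (standard error 0.09 for each), while its further probe set gave 0.07 and 0.12. Kcnip3, also known as a calcium-dependent transcriptional repressor, read 7.59 and 7.40 in Untreated, 7.64 and 7.46 with Gpc4, and 7.77 and 7.58 with TSP1. Replicate 2 was the lower in each group, and the log2 fold changes were 0.06 and 0.18. Kcnip2 read 7.07 and 6.83 in Untreated, 6.91 and 6.72 with Gpc4, and 6.81 and 6.84 with TSP1, with -0.14 and -0.13 and overlapping arrays, and Kcnip1 had -0.06 and 0.02.

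Of the remaining potassium channel genes, Kcnq3 encodes a subunit of the M-current, which damps excitability, and Kcnh1 and Kcnh2 the ether-a-go-go and ERG channels. Kcnh1 read 8.91 and 8.82 in Untreated, 9.08 and 8.93 with Gpc4, and 8.70 and 8.83 with TSP1. Both Gpc4 arrays lay above the 4 others, and the Gpc4 value exceeded that of TSP1 by 0.24 (standard error 0.10, adjusted p = 1.00 from limma and 0.75 when replicates were blocked). Kcnq3 read 5.38 and 5.39 in Untreated, 5.52 and 5.50 with Gpc4, and 5.56 and 5.52 with TSP1. Both treated groups lay above Untreated, and Gpc4 and TSP1 met at 5.52. The differences were 0.13 and 0.16 at values below the array medians, and a further probe set of Kcnq3 gave -0.12 and 0.17. Kcnh2 had 0.00 with Gpc4 and -0.08 with TSP1.

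Calcium-activated potassium channels shape the afterhyperpolarization. Kcnma1, the large-conductance BK channel, read 7.33 and 7.59 in Untreated, 7.56 and 7.73 with Gpc4, and 7.73 on both TSP1 arrays. Both TSP1 arrays lay above Untreated, whereas the Gpc4 arrays overlapped it. The log2 fold change was 0.27 with TSP1 (standard error 0.11, adjusted p = 0.98 from limma) and 0.19 with Gpc4, while its further probe sets gave -0.02 and 0.14 with TSP1. The small-conductance genes had 0.05 with each protein for Kcnn1, and -0.06 and 0.10 for Kcnn3, whose TSP1 arrays read 5.60 and 4.96.

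HCN channels pass the inward current that follows hyperpolarization. Hcn2 stood at 7.39 ± 0.05 (SD, n = 2) in Untreated, and its means of 7.38 with Gpc4 and 7.31 with TSP1 had SDs of 0.09 and 0.03. The groups differed by less than 0.10. Hcn3 had log2 fold changes of -0.04 and -0.02. Hcn4 read 4.80 and 4.52 in Untreated, 4.86 and 4.89 with Gpc4, and 4.87 and 4.66 with TSP1, below the array medians, with 0.22 and 0.11. The Gpc4 value was 0.08 without Untreated replicate 2 and 0.36 without Untreated replicate 1.

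**Figure D3:**
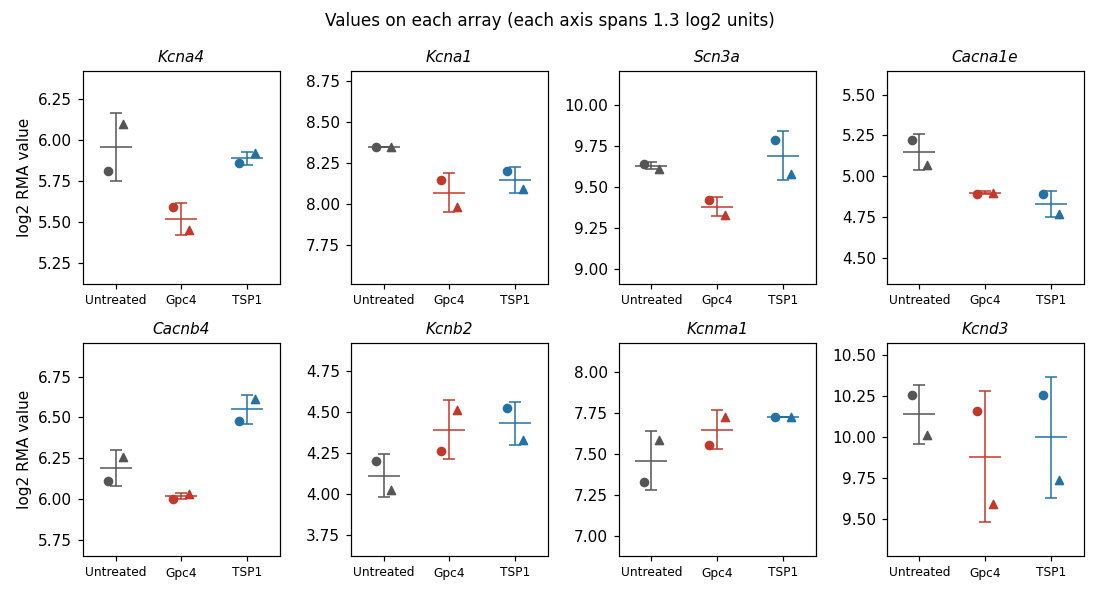
Log2 RMA values (y axis) of 8 channel genes in Untreated, Gpc4 and TSP1 (x axis), with circles for replicate 1, triangles for replicate 2, lines for means and bars for SDs (n = 2). Cacnb4 stands at 6.02 with Gpc4 and 6.55 with TSP1, and Kcnd3 differs between replicates in every group.

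The pore subunits of high-voltage-activated calcium channels include those of the presynaptic P/Q-type (Cacna1a) and N-type (Cacna1b), the L-type (Cacna1c and Cacna1d) and the R-type (Cacna1e). Cacna1e read 5.22 and 5.07 in Untreated, 4.89 and 4.90 with Gpc4, and 4.89 and 4.77 with TSP1. All 4 treated arrays lay below both Untreated arrays. The log2 fold change was -0.25 with Gpc4 (standard error 0.10, adjusted p = 0.70 from limma) and -0.32 with TSP1 (standard error 0.10, adjusted p = 0.98 from limma), from the same Untreated arrays and below the array medians. Cacna1b, the channel of transmitter release at many terminals, stood at 10.18 ± 0.03 (SD, n = 2) in Untreated, with -0.13 and -0.08. Cacna1a read 6.69 and 7.12 in Untreated, 7.15 on both Gpc4 arrays, and 6.82 and 6.95 with TSP1. Its Gpc4 difference of 0.25 (standard error 0.14) was smaller than the 0.43 between its Untreated arrays, and its 4 further probe sets gave between -0.13 and 0.03. Cacna1d read 6.13 and 5.85 in Untreated, 5.89 and 5.69 with Gpc4, and 5.65 and 5.82 with TSP1. Its log2 fold changes were -0.20 and -0.26, the latter with -0.48 in replicate pair 1 and -0.03 in pair 2. The further probe sets of Cacna1d gave 0.01 and -0.03 with Gpc4, and -0.09 and 0.04 with TSP1. Cacna1c had -0.01 with each protein, while its further probe set, below the array medians, gave 0.27 and 0.31. Of the low-voltage-activated T-type genes, Cacna1g had 0.21 with Gpc4 (95% interval -0.21 to 0.62) and -0.03 with TSP1, and Cacna1h -0.06 and 0.02.

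The calcium channel beta subunits bind the pore subunit inside the cell and promote its surface delivery. Cacnb4 gave the widest gap between the 2 proteins. It read 6.11 and 6.26 in Untreated, 6.00 and 6.03 with Gpc4, and 6.48 and 6.61 with TSP1. The groups did not overlap, with TSP1 highest and Gpc4 lowest. Against Untreated the log2 fold change was 0.36 with TSP1 (standard error 0.10, 95% interval 0.13 to 0.59, adjusted p = 0.98 from limma and 0.65 when replicates were blocked) and -0.17 with Gpc4 (standard error 0.10, adjusted p = 0.78 from limma). Between Gpc4 and TSP1 it was -0.53 (standard error 0.10, 95% interval -0.76 to -0.30), with -0.48 in replicate pair 1 and -0.58 in pair 2. This difference did not pass (adjusted p = 0.27 from limma and 0.095 when replicates were blocked), and at a mean log2 value near 6 it lies close to the array medians. All 4 beta subunit genes had negative log2 fold changes with Gpc4, though a further probe set of Cacnb1 gave 0.02. Cacnb3 read 8.09 and 8.34 in Untreated, 7.92 and 8.05 with Gpc4, and 8.12 and 8.18 with TSP1, with a Gpc4 value of -0.23 (standard error 0.11, adjusted p = 0.75 from limma). It was -0.36 without Untreated replicate 1 and -0.11 without Untreated replicate 2. Cacnb1 had -0.13 and Cacnb2 -0.16, and with TSP1 the 3 genes gave -0.07, -0.06 and 0.04.

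Further probe sets gave a check of these values within a gene. The 41 genes had 77 probe sets, and none of the 77 passed in any of the 3 comparisons, with or without the replicate block. Of the 21 genes with more than 1 probe set, all probe sets shared a sign in 6 with Gpc4 and in 6 with TSP1. A second probe set of Kcnd2, at 7.74 in Untreated, gave -0.39 on the log2 scale with Gpc4, beside -0.17 for the probe set used (adjusted p = 0.56 from limma). The further probe sets of Kcnc2 gave -0.31, 0.01, -0.15, -0.15 and -0.12 beside -0.26, and those of Kcnip1 gave 0.35 and -0.01 beside -0.06. Kcna4, Kcna1, Scn3a, Cacna1e and Cacnb4 each had 1 probe set, so their values have no such check.

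**Figure D4:**
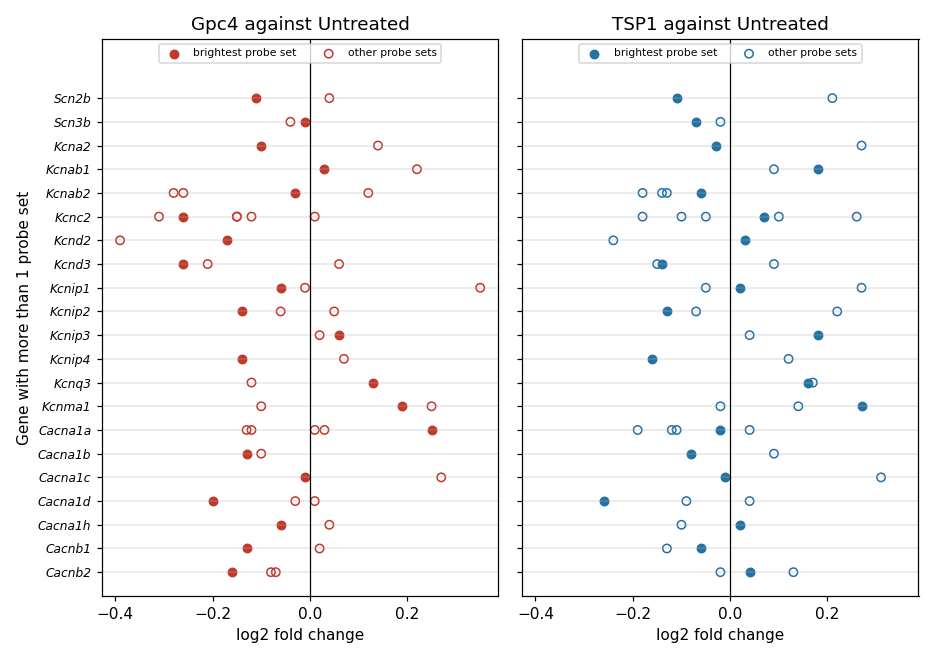
Log2 fold change (x axis) of every probe set of the 21 channel genes (y axis) that have more than 1, with Gpc4 (left) and TSP1 (right) against Untreated. Filled points are the probe sets used and open points the others; in 6 genes of 21 all probe sets share a sign in each panel.

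Other channel genes were read from a list of 106 subunits of further sodium, potassium and calcium channels, leak and inward rectifier channels, and proteins that anchor or modify channels, of which 86 had a named probe set. None passed in any of the 3 comparisons, with or without the block. With Gpc4 42 had a negative log2 fold change and 42 a positive one (median 0.00), and with TSP1 44 and 40 (median -0.01). Cacna2d1, which encodes the alpha2delta-1 subunit through which TSP1 is known to act, read 11.49 and 11.44 in Untreated, 11.38 and 10.84 with Gpc4, and 11.39 and 11.28 with TSP1. All treated arrays lay below Untreated, by a log2 fold change of -0.36 with Gpc4 (standard error 0.16, adjusted p = 0.75 from limma), much of it on the second array, and of -0.13 with TSP1 (standard error 0.16). Stac2, whose product binds L-type channels, had -0.40 with Gpc4 (standard error 0.10, adjusted p = 0.49 from limma and 0.28 when replicates were blocked), and Kcnj5, an inward rectifier of the G protein-coupled kind, -0.28 (standard error 0.09). Against TSP1 these were -0.30 and -0.27. Fgf14, which binds sodium channels at the axon initial segment, had 0.31 with Gpc4 (standard error 0.09). Kcnk10, a leak channel, had 0.35 with Gpc4 and 0.37 with TSP1 (standard error 0.11 for each) against the same Untreated arrays. With TSP1 Cntn1 had -0.26, Fgf11 -0.23 and Scn4a 0.20, and between Gpc4 and TSP1 the leak channel genes Kcnk13 and Kcnk1 each had 0.26.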

How the data were processed

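mRNA of RGCs was measured on 6 arrays, 2 for each of Untreated, Gpc4 and TSP1, grouped by their titles. The authors used Affymetrix Expression Console for the scans, with a release not given in the sources used here. The authors deposited log2 RMA values, background-corrected, normalized between arrays and rounded to 2 decimals, which blurs differences near 0.01. No filter, pseudocount or further normalization was applied. Having 2 arrays per group limits the precision. A linear model in limma 3.58.1 (R 4.3.3) was fitted to all 31042 probe sets, with Benjamini-Hochberg adjustment over them. It used lmFit, then eBayes, with 1 mean per group and 3 residual degrees of freedom. The model was also run on simulated arrays without a replicate effect. The smallest change simulated there exceeded every difference of a channel gene, so recovery of differences this small was not tested. Standard errors and 95% intervals come from the fit of the measured arrays without the block. Differences given without an error of their own are log2 fold changes from it, and their median standard error was 0.10. The methods state 2 separate cultures, and deviations of same-numbered arrays correlated at 0.29, 0.35 and 0.37, so the replicate number pairs the arrays and was run as a block.

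Symbols came from the platform annotation, and 41 of 41 matched the RefSeq table of GRCr8 by gene identifier. Values on each array were given for the 6 genes of smallest p per direction against Untreated and for a few steady or uneven genes chosen after their values were seen; of the other channel genes the 2 of smallest p per direction and comparison were named, and Cacna2d1. The members and lists were chosen with earlier results of these data known. Plots were made in Python 3.11.15 with matplotlib 3.10.9. Alternatives were the block, quantile normalization, median centring, keeping probe sets with a mean of 6 or more, the 2 compared groups alone, a trended variance, gene means, an adjusted p under 0.10 and leaving out each array.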

Additional observations from a re-analysis of the deposited data

How the results depend on the processing

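No channel gene and no other channel gene passed in any of the 3 comparisons under the replicate block (0), quantile normalization, median centring, a filter at a mean of 6, only the 2 groups compared, a trended variance, gene means over probe sets, an adjusted p under 0.10 or when 1 array was left out (0 to 0). The exception, added after the data were seen, was the replicate block with an adjusted p under 0.10, where 1 channel gene (Cacnb4) passed between Gpc4 and TSP1. Over these fits the smallest adjusted p of a channel gene from limma was 0.34 with Gpc4, 0.65 with TSP1 and 0.095 between them. The median log2 fold change was -0.10 to -0.01 with Gpc4 and -0.04 to 0.03 with TSP1 when 1 array was left out. With Gpc4 it was -0.01 without Gpc4 replicate 2, beside -0.01 for all probe sets on all arrays. With TSP1 it was 0.03 without TSP1 replicate 2. The named values below turned their sign, all with TSP1 and none of them past the threshold. With gene means Scn2b was 0.05 and Kcnip2 0.01. Kcnab1 was -0.02 without TSP1 replicate 1, in a range of -0.02 to 0.37 when 1 array was left out. Leaving out 1 array moved 14 of the 28 named values by over 1.5 times. With Gpc4 the ranges were -0.58 to -0.29 for Kcna4, -0.36 to -0.11 for Cacnb3, -0.30 to -0.11 for Scn2a, 0.15 to 0.40 for Kcnb2, 0.08 to 0.36 for Hcn4, 0.03 to 0.46 for Cacna1a, 0.06 to 0.32 for Kcnma1 and 0.07 to 0.22 for Kcnh1. The array was an Untreated one for Kcna4, Cacnb3, Hcn4, Cacna1a and Kcnma1 and a Gpc4 one for Scn2a, Kcnb2 and Kcnh1. With TSP1 they were -0.40 to -0.12 for Cacna1d, -0.18 to -0.04 for Scn2b, -0.25 to -0.01 for Kcnip2, 0.14 to 0.40 for Kcnma1 and 0.09 to 0.28 for Kcnip3, each from an Untreated array, beside Kcnab1. The cause was not tested. Signal near the array medians limits what can be said of Kcna4, Cacnb4 and the dim genes.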
